A study of Homo sapiens with 12 samples.

Results

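The 37 genes described here encode parts of the lysosome: acid hydrolases, proteins of its limiting membrane, subunits of its proton pump, the transcription factors TFEB and TFE3, and the autophagy receptor SQSTM1. They were chosen by name, with earlier results of these data known. Of the 37, 34 were found among the 17687 named genes of the deposited expression table. Expression of GLB1, NEU1 and NPC2 was not analysed here. Each gene had a single row. Expression was measured on 12 single-colour Affymetrix arrays, 1 per sample, in DLD1 and HCT 116 cells, both established human colorectal cancer lines. In each line, 3 samples received a control siRNA (siControl) and 3 received an siRNA against BRG1 (siBRG1), which makes 4 groups of 3. BRG1 is the protein of SMARCA4, an ATPase that drives the SWI/SNF chromatin remodelling complex, and the series asks what it does in intestinal tumour cells. All 12 samples carried an siRNA, so no untreated cells were compared, and the labels do not say whether the 3 samples of a group came from separate cultures. If they did not, the p-values below measure only technical spread.

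The lysosome is an acidic compartment in which proteins, lipids, glycans and worn-out organelles are broken down. Its enzymes are carried there by sorting receptors, a proton pump called the V-ATPase keeps its interior acidic, and heavily glycosylated membrane proteins such as LAMP1 and LAMP2 line its wall. TFEB, TFE3 and MITF, the MiT transcription factors, bind the E-box CACGTG, and above all its extended form TCACGTGA, in the promoters of many lysosomal genes, and are held in the cytoplasm when the mTORC1 kinase is active at the lysosome.

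Those letters were looked for on both strands in the RefSeq promoter windows (GRCh38.p14) of the members, which run from 250 bases before to 50 bases after each annotated start. Windows were found for 28 of the 37 members, several genes having more than 1. CACGTG stood in the windows of 7 of the 28, against 8.77% of all 27305 genes with a window. Among genes that were also measured it stood in 6 of 25 members, against 10.8% of 14250. TCACGTGA stood in 4 of the 28 (LAMP1, MCOLN1, CTSA and ATP6V0D1), against 1.18% of the 27305 genes. Every TCACGTGA contains a CACGTG, so the counts overlap. The stretches before the start are printed for these 4 genes and for CTSD, the member with CACGTG that differed most between the lines. They are on the coding strand, 5′ to 3′, with each CACGTG in capitals.
LAMP1, chr13:113297039-113297238, plus strand: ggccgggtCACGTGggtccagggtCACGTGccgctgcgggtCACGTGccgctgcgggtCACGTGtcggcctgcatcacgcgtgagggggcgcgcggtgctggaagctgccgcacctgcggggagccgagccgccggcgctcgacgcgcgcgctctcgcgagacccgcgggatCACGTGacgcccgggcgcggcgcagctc
MCOLN1, chr19:7522524-7522623, plus strand: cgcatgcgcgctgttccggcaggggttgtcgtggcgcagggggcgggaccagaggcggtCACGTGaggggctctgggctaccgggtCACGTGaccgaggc
CTSA, chr20:45891235-45891334, plus strand: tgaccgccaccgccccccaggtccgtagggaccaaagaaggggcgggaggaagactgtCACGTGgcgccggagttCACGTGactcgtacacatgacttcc
ATP6V0D1, chr16:67481158-67481257, minus strand: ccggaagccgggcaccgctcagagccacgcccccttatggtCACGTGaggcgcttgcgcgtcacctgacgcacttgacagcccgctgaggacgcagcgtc
CTSD, chr11:1763928-1764027, minus strand: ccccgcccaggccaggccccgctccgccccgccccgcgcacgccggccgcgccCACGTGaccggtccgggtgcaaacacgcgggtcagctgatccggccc
LAMP1 had 6 such sites in its window, of which 5 lie in the stretch shown; the other begins 1 base before the start and runs over it. The site of CTSD begins 47 bases before the start and is not part of the extended form. The AP-1 motif TGACTCA, searched in the same way, stood in the windows of 3 of the 28 members (CD63, CD68 and TFE3), against 6.05% of the 27305 genes. Of these, only CD68 was called with siBRG1. CD63, which is not printed, gave -0.27 in DLD1 and -0.30 in HCT 116. Whether the motif bears on any change was not tested. CD68 and TFE3 are printed because their values after siBRG1 are described further on, with TGACTCA or its reverse complement TGAGTCA in capitals.
CD68, chr17:7579488-7579587, plus strand, 150 to 51 bases before the start: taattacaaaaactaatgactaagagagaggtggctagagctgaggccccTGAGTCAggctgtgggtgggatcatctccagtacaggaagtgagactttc
TFE3, chrX:49043358-49043457, minus strand: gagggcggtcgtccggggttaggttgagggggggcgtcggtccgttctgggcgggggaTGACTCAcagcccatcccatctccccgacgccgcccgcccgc
A match describes the letters of a window and does not show that a factor was bound there in these cells.

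The values are log2 expression levels as deposited, and differences are given on the same log2 scale, with a standard error (SE) and a p-value from limma adjusted over all 17687 named genes; a gene is called when that adjusted p is under 0.05. The arrays had medians between 6.36 and 6.50. As a check of the labels, SMARCA4 (Entrez gene 6597), the siRNA target, read 10.31, 9.95 and 10.29 in the DLD1 siControl arrays and 6.29, 6.55 and 6.31 with siBRG1. In HCT 116 it read 10.12, 10.15 and 9.59 with siControl and 6.78, 6.39 and 7.03 with siBRG1. It fell by 3.80 (SE 0.21) in DLD1 and by 3.22 (SE 0.21) in HCT 116. Of 9 measured markers of colorectal epithelium, 6 stood above the array median in all arrays of every group, while VIL1, CDX1 and LGALS4 stood below it in all of them. Of 10 macrophage markers, 7 to 9 per group stood below the median in all its arrays, and so did 6 of 7 fibroblast markers. The first HCT 116 siControl array lay farthest from its group (root mean square deviation 0.320 over all genes, against 0.227 to 0.285 for the other arrays), and it held the lowest value of its group for 21 of the 34 members, against 38.8% of all genes. Results were therefore also computed without both HCT 116 arrays numbered 1, which gave 5 members called in HCT 116, 7 on average and 22 between the siControl lines, against 5, 7 and 23 with all arrays. The share of all genes called without those arrays is not given, so the counts of members alone do not show stability. The sets were not the same: CTSZ and SQSTM1 gave way to CTSD and CTSH in HCT 116, IDS and MAN2B1 gave way to CTSD and CTSH on average, and GLA was lost between the siControl lines.

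The largest contrast among the lysosome genes lay between the lines, not between the siRNAs. In the siControl arrays 21 of the 34 members were lower in HCT 116 than in DLD1 and CD68 and CTSZ were higher, so that 67.6% of the members were called against 27.6% of all genes. The share lower was 61.8%, against 14% of all genes, and the share higher was 5.88%, against 13.6%. The median difference over the members was -0.86, and over all genes 0.03. Members are expressed above the typical gene, and of the 30 whose mean lay above the median level 21 were lower, against 23.1% of the genes above that level. Each array is bulk RNA, so fewer expressing cells and less RNA per cell cannot be told apart.

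**Figure D1:**
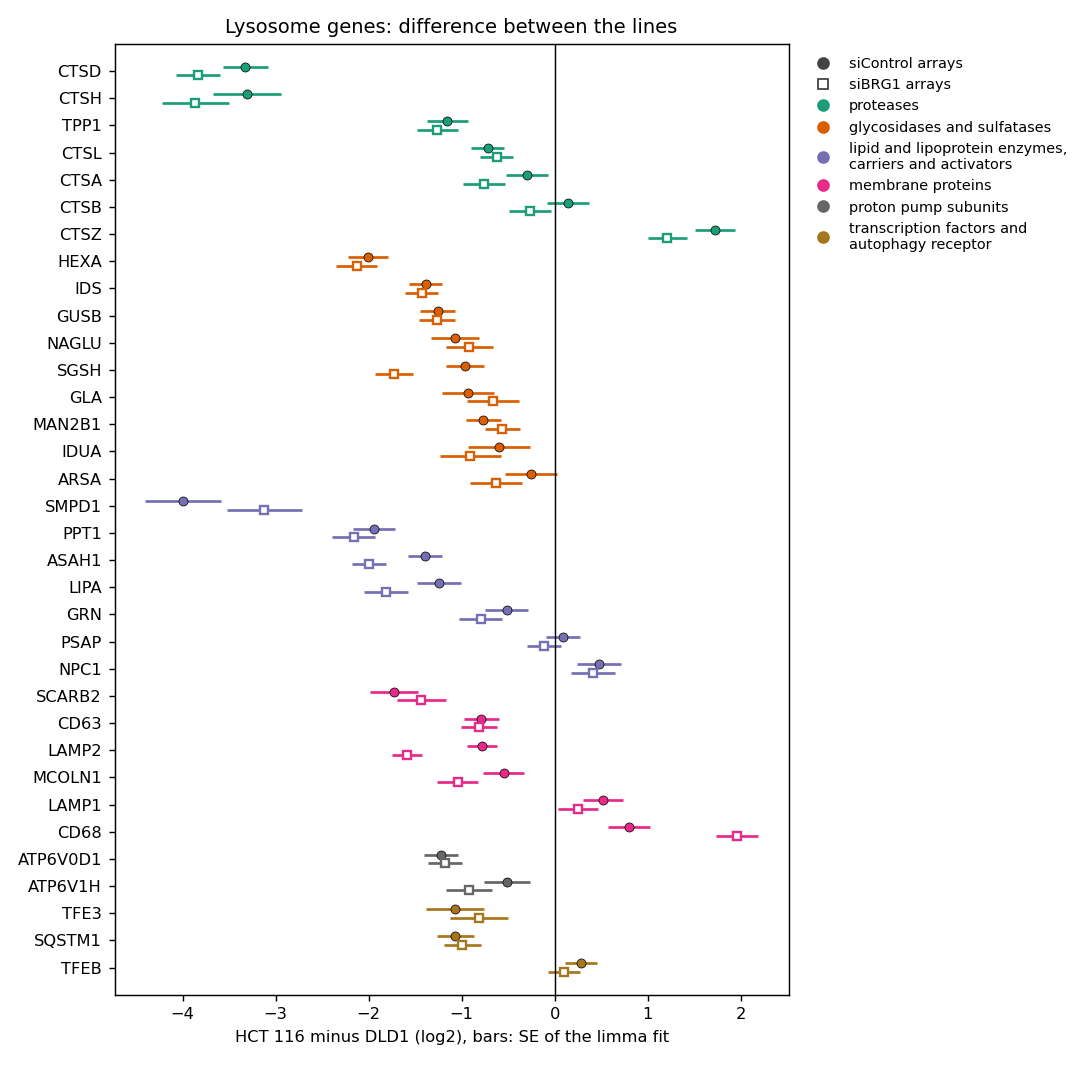
Difference in log2 expression between HCT 116 and DLD1 (x axis, log2) for each of the 34 measured lysosome genes (y axis), from the siControl arrays (filled circles) and the siBRG1 arrays (open squares), with bars of 1 SE. Values left of 0 are lower in HCT 116: 27 of the 34 circles and 29 of the 34 squares lie there, with CTSD, CTSH and SMPD1 farthest left and CTSZ and CD68 to the right.

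Among the proteases 4 of 7 were lower in HCT 116 and 1 was higher. CTSD (Entrez gene 1509), cathepsin D, the main aspartic protease of the lysosome, read 15.14, 15.20 and 15.26 in the DLD1 siControl arrays and 14.90, 15.09 and 15.32 with siBRG1. The HCT 116 arrays gave 11.31, 12.09 and 12.22 with siControl and 11.38, 11.49 and 10.93 with siBRG1. Every DLD1 array was above every HCT 116 array, and the siControl difference (HCT 116 minus DLD1) was -3.32 (SE 0.24, limma adjusted p = 3.88e-08). CTSH (Entrez gene 1512), cathepsin H, a cysteine protease that trims peptides from their amino end, read 9.92, 9.51 and 9.68 in the DLD1 siControl arrays and 9.76, 9.62 and 8.87 with siBRG1. For HCT 116 the values were 5.40, 6.66 and 7.13 with siControl and 5.97, 5.24 and 5.45 with siBRG1. The lines did not overlap, and the siControl difference was -3.31 (SE 0.36, limma adjusted p = 4.66e-06); 4 of the 6 HCT 116 arrays put CTSH below the array median. CTSZ (Entrez gene 1522), cathepsin X, a carboxypeptidase, ran the other way, at 10.44, 10.67 and 10.54 in the DLD1 siControl arrays and 10.63, 9.67 and 10.27 with siBRG1. HCT 116 cells had levels of 12.25, 12.26 and 12.29 with siControl and 11.43, 11.47 and 11.29 with siBRG1. Here every HCT 116 array was above every DLD1 array, with a siControl difference of 1.72 (SE 0.21, limma adjusted p = 1.55e-05). Of the others, CTSL (cathepsin L, a cysteine protease, -0.72) and TPP1 (tripeptidyl peptidase, -1.16) were lower in HCT 116, whereas CTSB (cathepsin B, 0.14, adjusted p = 0.725) and CTSA (protective protein cathepsin A, -0.30, adjusted p = 0.391) did not pass the test.

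The glycosidases and sulfatases, which take apart glycans and glycolipids, gave 7 of 9 lower in HCT 116 and none higher. HEXA (Entrez gene 3073), the alpha subunit of the hexosaminidase that degrades GM2 ganglioside, read 10.95, 10.49 and 10.93 in the DLD1 siControl arrays and 11.19, 10.38 and 11.06 with siBRG1. In HCT 116 it read 8.82, 8.73 and 8.80 with siControl and 8.73, 8.60 and 8.90 with siBRG1. The DLD1 arrays all lay above the HCT 116 arrays, and the siControl difference was -2.01 (SE 0.22, limma adjusted p = 3.90e-06). IDS, iduronate sulfatase, differed by -1.39, GUSB, beta-glucuronidase, by -1.26, NAGLU and SGSH, both needed to degrade heparan sulfate, by -1.07 and -0.97, GLA, alpha-galactosidase A, by -0.93, and MAN2B1, an alpha-mannosidase, by -0.77. The call of GLA was lost without DLD1 siControl 2 (limma adjusted p = 0.114) and without HCT 116 siControl 3 (0.0686). IDUA, alpha-iduronidase (-0.60, adjusted p = 0.215), and ARSA, arylsulfatase A (-0.25, adjusted p = 0.581), did not pass; ARSA stood below the array median in all 12 arrays and IDUA in 9 of the 12.

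Of the lipid enzymes, carriers and activators, 4 of 7 were lower in HCT 116. SMPD1 (Entrez gene 6609), the acid sphingomyelinase, read 8.96, 8.13 and 9.70 in the DLD1 siControl arrays and 8.86, 8.02 and 9.35 with siBRG1. The HCT 116 arrays gave 4.97, 4.53 and 5.31 with siControl and 5.27, 6.30 and 5.30 with siBRG1. All 6 DLD1 arrays were above all 6 HCT 116 arrays, which put SMPD1 below their median, and the siControl difference was the largest among the members, at -3.996 (SE 0.41, limma adjusted p = 1.96e-06). PPT1 (Entrez gene 5538), which removes palmitate from proteins, read 13.98, 13.82 and 14.27 in the DLD1 siControl arrays and 14.45, 14.24 and 14.79 with siBRG1. For HCT 116 the values were 11.75, 12.18 and 12.31 with siControl and 11.97, 12.68 and 12.35 with siBRG1. These groups did not overlap between lines either, and the siControl difference was -1.94 (SE 0.23, limma adjusted p = 9.52e-06). ASAH1, acid ceramidase, and LIPA, acid lipase, differed by -1.40 and -1.24. PSAP, the precursor of the saposins (0.09, adjusted p = 0.773), NPC1, a cholesterol exporter (0.47, adjusted p = 0.169), and GRN, progranulin (-0.52, adjusted p = 0.112), did not pass the test.

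Of the 6 membrane proteins, 3 were lower in HCT 116 and 1 was higher. SCARB2 (Entrez gene 950), the sorting receptor of glucocerebrosidase, read 10.58, 10.94 and 10.91 in the DLD1 siControl arrays and 10.66, 10.62 and 10.91 with siBRG1. HCT 116 cells had levels of 8.37, 9.37 and 9.52 with siControl and 9.04, 9.48 and 9.37 with siBRG1. Its DLD1 arrays all exceeded its HCT 116 arrays, with a siControl difference of -1.73 (SE 0.26, limma adjusted p = 1.10e-04). LAMP2 and the tetraspanin CD63 each differed by -0.79, while CD68, a LAMP-family glycoprotein, was higher by 0.80, a call lost without DLD1 siControl 3 (limma adjusted p = 0.0885) or HCT 116 siControl 3 (0.0653). LAMP1, in contrast to LAMP2, gave 0.52 (adjusted p = 0.0912), and the calcium channel MCOLN1 gave -0.55 (adjusted p = 0.0839). Of the proton pump subunits, ATP6V0D1 was lower, at -1.22 (limma adjusted p = 1.16e-04), and ATP6V1H gave -0.51 (adjusted p = 0.153). TFE3 (Entrez gene 7030) read 8.30, 9.53 and 9.05 in the DLD1 siControl arrays and 9.45, 9.79 and 9.05 with siBRG1. In HCT 116 it read 7.83, 7.96 and 7.87 with siControl and 7.99, 8.86 and 8.998 with siBRG1. The siControl difference was -1.07 (SE 0.31, limma adjusted p = 0.0172), a call lost without DLD1 siControl 2 (0.0916) or DLD1 siControl 3 (0.0548). TFEB (Entrez gene 7942) read 2.55, 2.58 and 2.72 in the DLD1 siControl arrays and 2.49, 2.66 and 2.68 with siBRG1. The HCT 116 arrays gave 2.70, 3.17 and 2.81 with siControl and 2.81, 2.71 and 2.60 with siBRG1. It lay below the array median in all 12 arrays, with a siControl line difference of 0.28 (adjusted p = 0.278). SQSTM1 differed by -1.07 (limma adjusted p = 6.84e-04).

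The siBRG1 arrays of the lines also differed. Between them 26 of the 34 members (76.5%) were called, against 30.8% of all genes: 24 (70.6%) lower in HCT 116, against 16.8%, and 2, again CD68 and CTSZ, higher, against 14%. The median was -0.92, and over all genes 0.03. This second comparison uses no array of the first. Both compare the same lines and share the spread estimate of a single fit, so the second is not an independent repeat. In both, 19 of the 34 members (55.9%) were lower in HCT 116, against 11.8% of all genes, and 2 members were higher. Calls between the siBRG1 arrays that were lost in some alternative were those of CTSA, CTSL, IDUA, MAN2B1, NAGLU and GRN, with the highest limma adjusted p, 0.259, for IDUA without DLD1 siBRG1 3. IDUA, whose limma adjusted p in the main fit was just under 0.05, lost its call in 13 of 20 alternatives. The largest differences in the knockdown arrays were those of CTSH (-3.86), CTSD (-3.83) and SMPD1 (-3.12). GLA and TFE3 were called in the siControl arrays and not in the siBRG1 arrays (-0.66 and -0.81), and CTSA, IDUA, GRN, MCOLN1 and ATP6V1H the other way round; whether the difference between lines itself changed with siBRG1 was tested as the interaction, which called none of the 34 members, as given below.

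**Figure D2:**
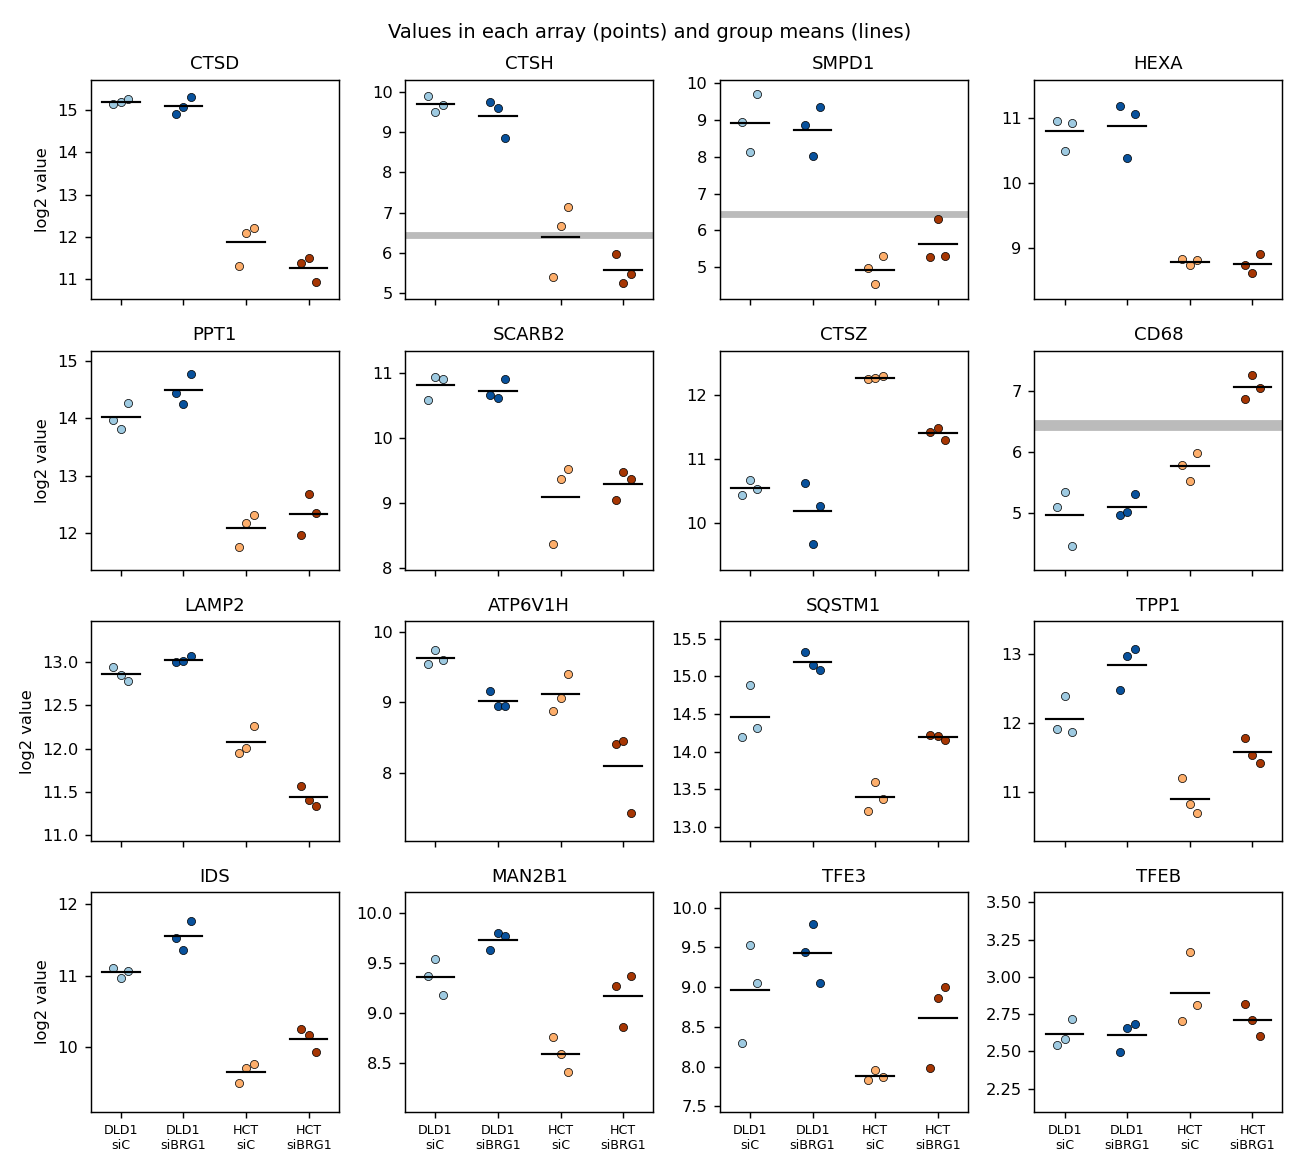
Log2 expression (y axis) in each of the 12 arrays of the lysosome genes with a value given for every array, 3 points for each group of line and siRNA (x axis; siC is siControl, HCT is HCT 116) with a line at the group mean. The grey band is the range of the array medians, 6.36 to 6.50; the TFEB points lie below it in all 12 arrays, and the CTSD and SMPD1 points of DLD1 lie above those of HCT 116.

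Fewer lysosome genes were called with siBRG1 than between the lines, and so it was over all genes. In DLD1 no member was called, at a background of 0.198% of all genes. There 5 of the 34 had an unadjusted limma p under 0.05, as did 1860 of all 17687 genes. The median change was 0.15, over all genes 0.01. In HCT 116 5 members (14.7%) were called, against 6.95% of all genes. Of these 2 rose, CD68 and SQSTM1 (5.88% of members, background 2.82%), and 3 fell, LAMP2, CTSZ and ATP6V1H (8.82%, background 4.13%). The median was -0.04, and -0.01 over all genes. Averaged over both lines 7 members (20.6%) were called, against 8.68%. Of these 5 rose, namely CD68, IDS, MAN2B1, TPP1 and SQSTM1 (14.7% of members, background 4.01%), and 2 fell, CTSZ and ATP6V1H (5.88%, background 4.68%). No member was called for a difference in response between the lines, at a background of 0.334%. There 4 of the 34 had an unadjusted limma p under 0.05, as did 1590 of all 17687 genes. Leaving out arrays lowered the HCT 116 count to 2 without siControl 2 or siBRG1 2, and to 1 without siControl 3 or siBRG1 3. The share of all genes called in those fits is not given, so a loss particular to the members cannot be told from a general one. CD68 was the one call that held for HCT 116 in every alternative that tested it, and CD68, TPP1, SQSTM1 and ATP6V1H were the 4 that did so for the average; CD68 was not tested among genes above the median level. Centring each array on its median left 2 members higher and 2 lower in HCT 116 and turned the split of calls over all genes from 499 higher and 731 lower to 645 and 559.

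**Figure D3:**
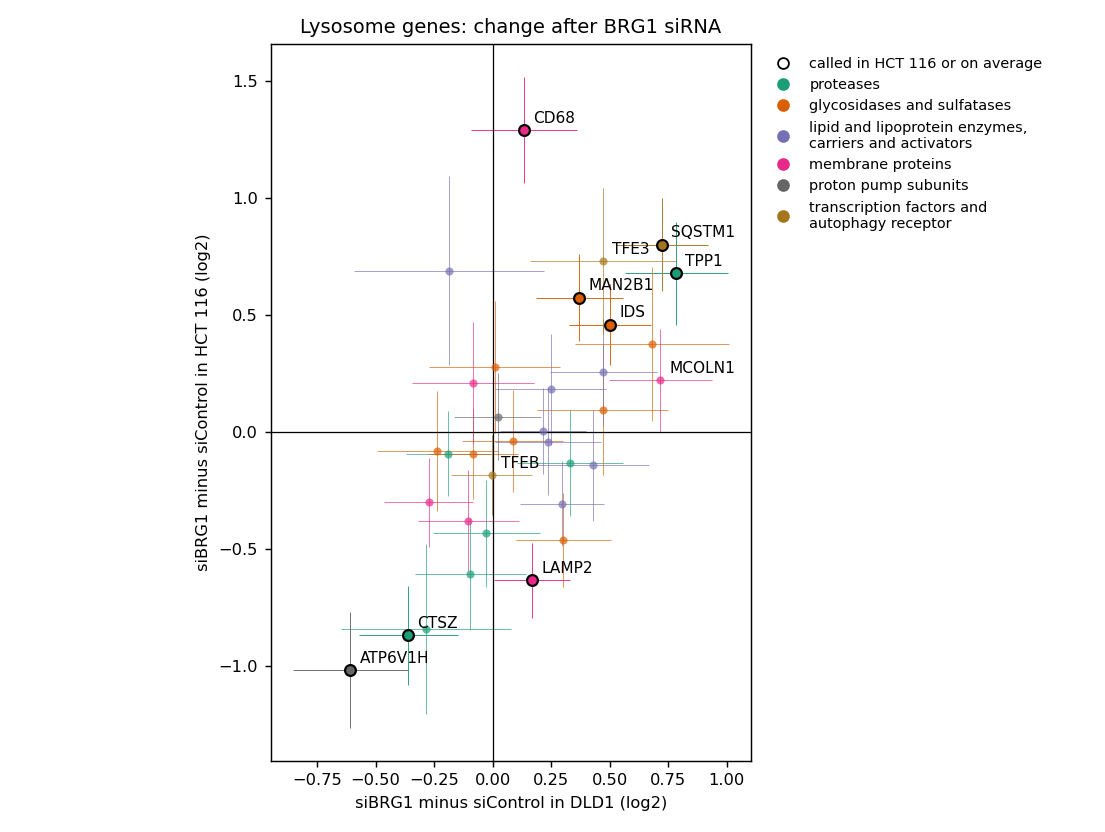
Change in log2 expression with siBRG1 (siBRG1 minus siControl) in DLD1 and in HCT 116 for the 34 measured lysosome genes, with bars of 1 SE; a black outline marks genes called in HCT 116 or on the average of both lines. SQSTM1, TPP1, IDS and MAN2B1 lie above 0 in both lines and ATP6V1H below 0 in both. CD68 lies highest in HCT 116, and LAMP2 lies above 0 in DLD1 and below 0 in HCT 116. The difference in response between the lines did not pass for CD68 or LAMP2 (limma adjusted p = 0.192 and 0.204).

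Counted by arrays, the siBRG1 arrays stood entirely above the siControl arrays for 5 members in DLD1 (8.33% of all genes) and for 8 in HCT 116 (11.9%), and entirely below for 1 in DLD1 (7.19%) and for 5 in HCT 116 (13%). They did so upward in both lines for 4 members, IDS, MAN2B1, TPP1 and SQSTM1 (2.52% of all genes), and downward in both for 1, ATP6V1H (2.58%).

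SQSTM1 (Entrez gene 8878), p62, which links ubiquitinated cargo to autophagosomes, read 14.20, 14.88 and 14.31 in the DLD1 siControl arrays and 15.33, 15.15 and 15.09 with siBRG1. For HCT 116 the values were 13.22, 13.60 and 13.37 with siControl and 14.22, 14.21 and 14.15 with siBRG1. The siBRG1 arrays were above the siControl arrays without overlap in each line. The change was 0.72 in DLD1 (SE 0.20, limma adjusted p = 0.165) and 0.80 in HCT 116 (SE 0.20, adjusted p = 0.0237), and the average rose by 0.76 (SE 0.14, adjusted p = 0.00444). The HCT 116 call was lost without any 1 of its arrays except siControl 2, at adjusted p between 0.0566 and 0.0744, and at 0.121 without both arrays numbered 1. TPP1 (Entrez gene 1200) read 11.92, 12.39 and 11.87 in the DLD1 siControl arrays and 12.48, 12.98 and 13.08 with siBRG1. HCT 116 cells had levels of 11.20, 10.82 and 10.69 with siControl and 11.79, 11.54 and 11.42 with siBRG1. Again neither line overlapped, with changes of 0.79 in DLD1 (adjusted p = 0.175) and 0.68 in HCT 116 (adjusted p = 0.0819), and the average rose by 0.73 (SE 0.16, limma adjusted p = 0.0102).

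IDS (Entrez gene 3423) read 11.11, 10.97 and 11.06 in the DLD1 siControl arrays and 11.52, 11.36 and 11.76 with siBRG1. In HCT 116 it read 9.50, 9.71 and 9.77 with siControl and 10.26, 10.16 and 9.93 with siBRG1. The siBRG1 arrays were higher in both lines without overlap, by 0.50 in DLD1 and 0.46 in HCT 116, and the average rose by 0.48 (SE 0.12, limma adjusted p = 0.0267). MAN2B1 (Entrez gene 4125) read 9.37, 9.54 and 9.18 in the DLD1 siControl arrays and 9.62, 9.80 and 9.76 with siBRG1. The HCT 116 arrays gave 8.76, 8.60 and 8.42 with siControl and 9.27, 8.86 and 9.37 with siBRG1. Its arrays too did not overlap in either line, with changes of 0.37 and 0.57, and the average rose by 0.47 (SE 0.13, limma adjusted p = 0.0386). Neither gene passed in a single line. Both average calls were lost when single arrays were left out: that of IDS was lost without DLD1 siControl 2 or 3, DLD1 siBRG1 3, HCT 116 siControl 2 or HCT 116 siBRG1 1 or 2 (highest adjusted p 0.0787), and that of MAN2B1 without DLD1 siControl 1 or 3, DLD1 siBRG1 2 or 3, HCT 116 siControl 2 or 3 or HCT 116 siBRG1 1 or 3 (highest 0.0976). Without both HCT 116 arrays numbered 1 they stood at 0.0767 (IDS) and 0.0565 (MAN2B1). The MAN2B1 call was also lost with further quantile normalization (0.0518) and with a trended and robust prior (0.051).

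ATP6V1H (Entrez gene 51606), a subunit of the cytosolic sector of the proton pump, read 9.54, 9.75 and 9.60 in the DLD1 siControl arrays and 9.16, 8.95 and 8.95 with siBRG1. For HCT 116 the values were 8.88, 9.06 and 9.41 with siControl and 8.41, 8.46 and 7.43 with siBRG1. The siBRG1 arrays were below the siControl arrays in both lines, and the third HCT 116 siBRG1 array was the lowest of all. It fell by 1.02 in HCT 116 (SE 0.25, limma adjusted p = 0.0223) and by 0.81 on average (SE 0.18, adjusted p = 0.0111), and gave -0.61 in DLD1 (SE 0.25, adjusted p = 0.383). The HCT 116 call was lost without siControl 2 (0.0642), siControl 3 (0.0967) or siBRG1 3 (0.0849), and with each line fitted alone (0.0799).

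CD68 (Entrez gene 968) was at 5.09, 5.33 and 4.46 in the DLD1 siControl arrays and 4.95, 5.02 and 5.31 with siBRG1. HCT 116 cells had levels of 5.79, 5.52 and 5.98 with siControl and 6.86, 7.25 and 7.04 with siBRG1. In HCT 116 the siBRG1 arrays all exceeded the siControl arrays, while the DLD1 groups overlapped. The siControl arrays of HCT 116 and all DLD1 arrays put CD68 below the array median. It rose by 1.29 in HCT 116 (SE 0.23, limma adjusted p = 0.0036), against 0.13 in DLD1 (SE 0.23, adjusted p = 0.922), and the difference of 1.16 between these changes did not pass (SE 0.32, adjusted p = 0.192). CD68 is commonly used to mark macrophages. Of 10 other macrophage markers none was called in HCT 116, with changes from -0.47 to 0.33; 9 of the 10 lay below the array median in every HCT 116 array, and their mean per array ran from 4.74 to 5.004 with siControl and from 4.72 to 4.79 with siBRG1. LAMP2 (Entrez gene 3920), a membrane protein needed for autophagosome clearance, read 12.94, 12.85 and 12.78 in the DLD1 siControl arrays and 12.999, 13.01 and 13.07 with siBRG1. In HCT 116 it read 11.95, 12.01 and 12.26 with siControl and 11.57, 11.40 and 11.34 with siBRG1. It is the 1 member whose siBRG1 arrays lay entirely above the controls in DLD1 and entirely below them in HCT 116, a pattern of 0.435% of all genes. It fell by 0.63 in HCT 116 (SE 0.16, limma adjusted p = 0.0288), with 0.17 in DLD1 (adjusted p = 0.82), and the difference of -0.80 did not pass (SE 0.23, adjusted p = 0.204). Its HCT 116 call was lost without siControl 2 (0.0734), siControl 3 (0.12), siBRG1 2 (0.0898) or siBRG1 3 (0.109), and at 0.0543 after centring the arrays or 0.0793 with each line fitted alone. CTSZ, whose values are given above, fell in HCT 116 by 0.87 (SE 0.21, limma adjusted p = 0.0229) without overlap and by 0.61 on average (adjusted p = 0.0215), with -0.36 in DLD1 (adjusted p = 0.626). Its HCT 116 call was lost without siControl 2 (0.0734), siControl 3 (0.07), siBRG1 2 (0.0575), siBRG1 3 (0.0876) or both arrays numbered 1 (0.0802), and its average call without HCT 116 siBRG1 3 (0.0525).

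TFE3 gave 0.47 in DLD1 (adjusted p = 0.686), 0.73 in HCT 116 (adjusted p = 0.195) and 0.60 on average (adjusted p = 0.116), and its siBRG1 arrays lay above the controls in HCT 116 only. TFEB gave -0.00 and -0.18 (adjusted p = 0.997 and 0.626). Of the 6 measured members with CACGTG in a promoter window, none was called with siBRG1 in either line or on average; the nearest was MCOLN1, at 0.47 on average (SE 0.16, limma adjusted p = 0.0804), which the fit with the replicate number as a block called (0.0209), as did the fit of genes above the median level (0.045). CTSD was called in HCT 116 and on average without both arrays numbered 1. Between the siControl lines those 6 went from -3.32 (CTSD) through -1.22 (ATP6V0D1), -0.79 (CD63), -0.55 (MCOLN1) and -0.30 (CTSA) to 0.52 (LAMP1), of which the first 3 were called. The remaining members gave no call with siBRG1. Their changes in DLD1 ran from -0.28 (CTSH) to 0.72 (MCOLN1), and in HCT 116 from -0.84 (CTSH) to 0.73 (TFE3).

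The pathway's other genes were taken in 6 further lists of 163 genes, of which 148 were measured. In DLD1 none of the 6 lists had a called gene. In HCT 116 the list of autophagy and lysosome fusion genes had 7 of 44 called, 15.9% against 6.95% of all genes. Of these, 5 were higher (11.4% against 2.82%) and 2 lower (4.55% against 4.13%), and the median was 0.18 against -0.01 over all genes. Averaged over both lines, 10 of the 44 were called, 22.7% against 8.68%. There 7 were higher (15.9% against 4.01%) and 3 lower (6.82% against 4.68%), and that count ran from 6 to 12 over the alternatives. ATG12 (Entrez gene 9140), the ubiquitin-like protein conjugated to ATG5, read 11.58, 11.57 and 11.46 in the DLD1 siControl arrays and 11.71, 11.74 and 11.87 with siBRG1. The HCT 116 arrays gave 12.78, 12.71 and 12.95 with siControl and 14.65, 14.76 and 14.66 with siBRG1. It rose in HCT 116 by 1.87 (SE 0.16, limma adjusted p = 8.92e-06) against 0.24 in DLD1 (adjusted p = 0.683), and the difference of 1.64 between the lines passed the test (SE 0.22, adjusted p = 0.00438). ATG101, a subunit of the complex that starts autophagy, rose in HCT 116 by 1.004 (adjusted p = 0.0105, but 0.071 without both arrays numbered 1). VPS39, a subunit of the HOPS tether for fusion with lysosomes, fell by 0.92 (adjusted p = 0.0171), a call lost without HCT 116 siControl 1 (0.0532), siBRG1 2 (0.0786) or siBRG1 3 (0.0768) and with each line alone (0.0563). The HCT 116 count of this list fell to 2 without HCT 116 siBRG1 2 to 4 without siControl 1 or siBRG1 3, and to 3 without both arrays numbered 1. The share of all genes called in those fits is not given beside these counts either.

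Of the other lists, each had at most 2 genes called in HCT 116, or 0% to 7.69% of its genes, against 6.95% of all genes. Of 20 further V-ATPase subunits 1 was called, ATP6V0A2, which fell by 0.99 (SE 0.18, limma adjusted p = 0.00391). Of 26 further hydrolases and activators 2 were called: RNASET2, an acid ribonuclease, fell by 1.24 (adjusted p = 0.00511), and CTSS, cathepsin S, fell by 0.99 (adjusted p = 0.0173) at levels below the array median in all 12 arrays; the CTSS call was lost without siControl 2 (0.0796) or siBRG1 2 (0.0808) and with each line alone (0.0595). Of 25 further membrane proteins 1 was called, the cobalamin transporter ABCD4, which fell by 0.89 (adjusted p = 0.0238), a call lost without any 1 of siControl 1, 2 or 3 or siBRG1 2 or 3 (adjusted p 0.0567 to 0.109). Of 21 MiT and mTORC1 genes 1 was called, the kinase gene MTOR, which fell by 0.74 (adjusted p = 0.0378); it was lost at 0.0509 after centring, at 0.067 with each line alone, at 0.05 without DLD1 siBRG1 2, and without any HCT 116 array but siControl 1 (0.0574 to 0.147). Of 12 sorting genes none was called in either line (4 had an unadjusted limma p under 0.05 in HCT 116, as did 3615 of all 17687 genes). On average GNPTG, a subunit of the phosphotransferase that tags enzymes for the lysosome, rose by 0.57 (adjusted p = 0.0257), and the adaptor GGA2 fell by 0.49 (adjusted p = 0.0493). The GNPTG call was lost without 7 of the 12 arrays in turn (highest adjusted p 0.0762) and the GGA2 call without 10 of them (highest 0.131).

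**Figure D4:**
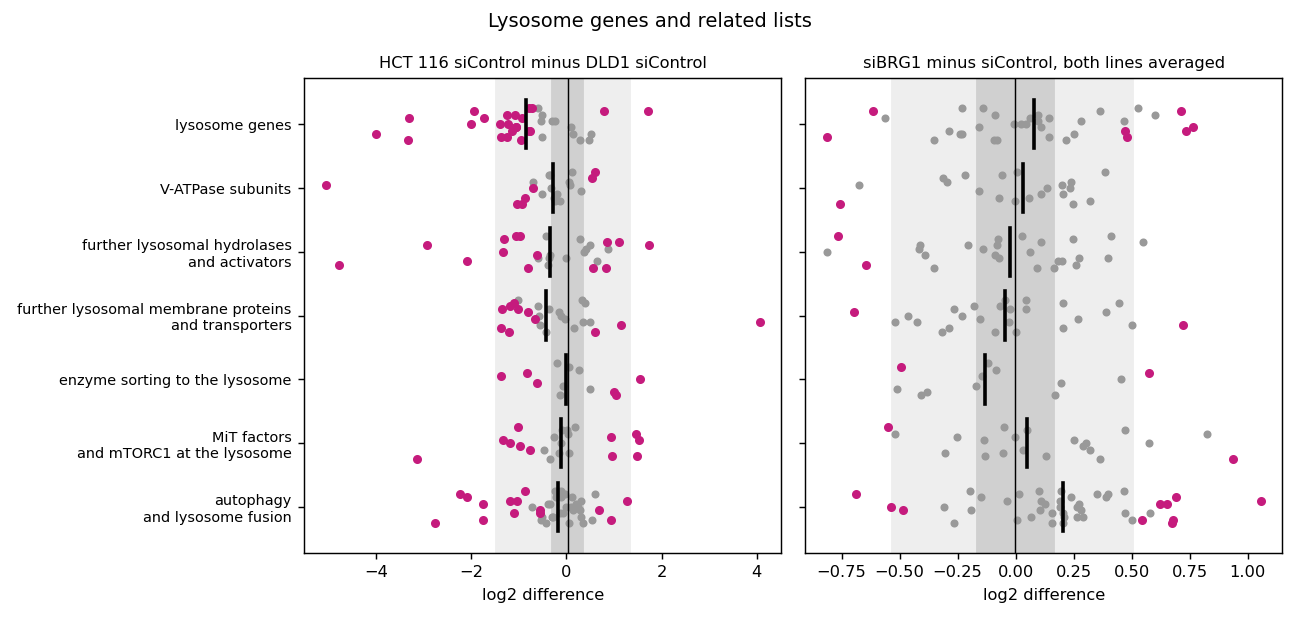
Log2 differences of single genes (points) in the lysosome genes and the 6 further lists, for the comparisons named above the panels; pink points are called, the black bar is the list median, the light and dark bands hold most and the central part of all 17687 genes (5th to 95th and 25th to 75th percentile) and the thin line is their median. The lysosome genes have the lowest list median between the siControl lines, at -0.86.

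Between the siControl lines, where the members had 2 higher and 21 lower of 34, the further hydrolases gave 5 higher and 9 lower of 26 (median -0.35), the further membrane proteins 3 and 8 of 25 (-0.42), the V-ATPase subunits 2 and 5 of 20 (-0.29), the autophagy genes 3 and 11 of 44 (-0.17), the MiT and mTORC1 genes 5 and 6 of 21 (-0.12) and the sorting genes 3 and 3 of 12 (-0.01). Over all genes 13.6% were higher and 14% lower. The shares called were 53.8%, 44%, 35%, 31.8%, 52.4% and 50% in the same order, against 27.6%. Single genes differed by more than any member; those named next were chosen after their values were seen. ATP6V1C2, a V-ATPase subunit of restricted tissue distribution, was lower in HCT 116, with a difference of -5.06 (SE 0.39, limma adjusted p = 9.65e-08), and GALC, galactosylceramidase, with one of -4.78 (SE 0.24, adjusted p = 5.20e-10). LAPTM4B, a lysosomal transmembrane protein, was higher by 4.06 (SE 0.18, adjusted p = 1.99e-10). Whether the MiT factors bear on the difference between the lines was not tested. MITF, another MiT factor, read 8.41, 8.54 and 9.24 in the DLD1 siControl arrays and 9.72, 9.73 and 10.49 with siBRG1. For HCT 116 the values were 4.90, 6.27 and 5.57 with siControl and 5.98, 5.90 and 6.74 with siBRG1. Signal was low there: MITF lay below the array median in every HCT 116 array except siBRG1 3. It was lower in HCT 116, with a siControl difference of -3.15 (SE 0.35, adjusted p = 4.62e-06) and rose with siBRG1 by 0.94 on average (SE 0.24, adjusted p = 0.0286), a call lost without DLD1 siControl 1 or 2, DLD1 siBRG1 3, HCT 116 siControl 1 or 3 or HCT 116 siBRG1 3 (highest adjusted p 0.0859), or without both HCT 116 arrays numbered 1 (0.0629). In DLD1 ATP6V1C2 changed by -1.83 with siBRG1 (SE 0.39, adjusted p = 0.0914), which the fit with the replicate number as a block called at 0.015.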

How the data were processed

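Total RNA of 12 samples was labelled with biotin and hybridised to 1 single-colour array each. The deposited values are log2 levels that the authors computed by RMA, a method that corrects background, equalises arrays and summarises probes; Affymetrix Power Tools is the software named per the submitters' processing notes. No version or genome build is given in the sources read for this work. On every array 94 to 112 values lie above 16, more than a 16-bit scanner can record, which points to an unnamed further step, so differences are printed as log2 values and never as folds. Precision is set by having 3 arrays a group. Of 21448 features, 17709 carry 1 symbol; a gene with several features was represented by the one with the highest mean. Groups follow the sample titles; in 4 HCT 116 samples the source name has a number that departs from the title.

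All 12 arrays were fitted with 4 group means (limma 3.58.1 in R 4.3.3, lmFit and eBayes; residual df 8, prior df 6.66), with Benjamini-Hochberg adjustment over all named genes of each comparison; the script was tested on simulated data. The members and lists were chosen with earlier results of these data known. Values for every array are given for SMARCA4, for members called with siBRG1, for the 6 largest differences between control lines, for TFEB and TFE3, and up to 3 called genes are named from each further list; ATG12 and MITF arrays were added after seeing their values. Samples of the same number deviated together in DLD1 (r = 0.485, 0.459 and 0.291), and less so in HCT 116 (0.299, 0.149 and 0.028). There siControl 3 reached 0.229 with an siBRG1 array of another number. The labels state no pairing, and the main fit uses none. Alternatives were the replicate number as a block, each line alone, further quantile normalization, median centring, genes above the median level, the mean of a gene's rows, a trended and robust prior, array weights, and leaving out each array. The comparison of the siBRG1 arrays between lines, and the omission of both HCT 116 arrays numbered 1, were added after seeing the data. Promoter windows are RefSeq's (GRCh38.p14).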

Additional observations from a re-analysis of the deposited data

Results flagged for a closer look

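LAMP2 stood apart by its array order: all siBRG1 arrays lay above the siControl arrays in DLD1 and all below them in HCT 116, and the HCT 116 change minus the DLD1 change was -0.80 (limma adjusted p = 0.204, so the difference did not pass the test; the DLD1 change of 0.17 did not pass either, at 0.82). ATG12, of the autophagy list, had an HCT 116 change that exceeded its DLD1 change by 1.64 in a test of that difference (limma adjusted p = 0.00438).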

How the results depend on the processing

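The count of lysosome genes called in HCT 116, 5, was the one count of members that moved by more than 1.5 times: it was 3 with each line fitted alone, 9 with array weights, and 1 to 7 when arrays were left out in turn. The counts for DLD1 and for the difference between lines stayed at 0 in every alternative. Those for the average ran from 5 to 9, for the siControl lines from 21 to 26 and for the siBRG1 lines from 23 to 29. For most alternatives the share of all genes called is not given beside these counts. No called change reversed its direction. Uncalled siBRG1 changes were followed only for members called in another siBRG1 comparison and for TFEB, TFE3 and MCOLN1. Among these, the changes of CD68 (-0.12 to 0.32) and TFEB (-0.06 to 0.05) in DLD1 took both signs. So did the differences in response of TPP1, IDS, SQSTM1 and TFE3, and the members' median in HCT 116 (-0.14 to 0.03). The uncalled changes of the other members were not followed. Of the 23 calls between the siControl lines, 20 held in every alternative that tested them (not CD68, GLA or TFE3), and of the 26 between the siBRG1 lines 20 did. Some alternatives tested little. Each member has a single row, so the mean of a gene's rows left its values as they were. Leaving out an array outside a comparison left the differences in that comparison as they were. With the replicate block no member's call was lost. It called 0 members in DLD1, 6 in HCT 116 (TPP1 added), 8 on average (MCOLN1 added) and 0 for the difference. Between the siControl lines it called 26 members, and between the siBRG1 lines 29. Calls over all 17687 genes rose as well. In the same order they were 98, 2123, 2476, 102, 5926 and 6446 with the block, against 35, 1230, 1536, 59, 4884 and 5451 without it. Median centring moved the all-gene median between the siBRG1 lines to 0.15 and the members' median to -0.80. Low signal limits TFEB and ARSA, below the array median in all 12 arrays, and CD68, below it in 9, among them every HCT 116 siControl array.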
